A study of Homo sapiens with 160 samples.

Results

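The genes described here code for collagens, for the glycoproteins and proteoglycans that surround them, for the enzymes that crosslink collagen and for the proteases and inhibitors that turn matrix over. They come from a list of 45 names that was chosen with earlier results of these data known. Its members were kept whichever way they moved. Their shares of calls, set beside those of all genes, are therefore a description. A gene was tested when its deposited value, which the authors name TPM (a length-scaled unit), reached 1 in at least 5 libraries. That left 36 of the 45 members, among 14827 tested genes of 29273 in the file. COL6A3, POSTN, LUM, LOXL4, MMP3, MMP9, MMP10, TIMP3 and ADAMTS6 did not reach it. MMP7 reached it in 7 libraries, all of them with mometasone at 18 h, so a difference in that gene was built into the filter, and counts are also given without it.

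RNA was sequenced from BEAS-2B, a virus-immortalised line of human bronchial epithelium labelled as wild type, grown to confluence with serum and kept without it overnight. Cells received vehicle, mometasone at 100 nM, indacaterol at 100 nM or carbachol at 10 µM, each pair of these agents, or all 3, for 1, 2, 6 or 18 h. Mometasone is a glucocorticoid that acts through the glucocorticoid receptor, indacaterol a long-acting agonist of the β2-adrenoceptor that raises cyclic AMP, and carbachol an agonist of muscarinic receptors. Of 160 samples, 150 libraries were used: 24 of the 32 groups held 5, 6 held 4 and 2 held 3. Mometasone alone at 18 h was one of the smallest groups, with replicates 2, 3 and 4, and vehicle at 18 h held replicates 2 to 5. The labels do not say that replicates were separate cultures, so p-values measure the spread between these libraries, which may be technical. All groups shared the line, the serum-free night and the culture conditions, and the labelled line is not primary airway tissue.

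Fibrillar collagens are secreted as triple helices, assembled into fibrils and covalently joined by lysyl oxidases after hydroxylation of lysines by enzymes such as PLOD2. Type IV collagen forms the sheet of the basement membrane, and matricellular proteins such as SPARC and the thrombospondins bind collagen and growth factors without being structural. Matrix metalloproteinases cut these proteins and TIMPs inhibit the metalloproteinases. Deposition of matrix under the bronchial epithelium is a known feature of the remodelled asthmatic airway.

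Before the values, 3 stretches of DNA upstream of members whose behaviour is described below are shown, from RefSeq's table for GRCh38.p14, which held an entry for 30 of the 45 members. Each covers the 126 bases before a transcription start, since that is exactly the distance between the starts of COL4A1 (110307157) and COL4A2 (110307284) on chromosome 13, which are transcribed away from each other. In the shared COL4A1 and COL4A2 stretch (chr13:110307158-110307283, plus strand) capitals mark CCAAT and the GC box GGGCGG, 105 and 65 bases before the COL4A2 start. In MMP7 (chr11:102530748-102530873, minus strand) they mark an AP-1 motif, TGAGTCA, and TATAAA, 67 and 30 bases before the start. In THBS1 (chr15:39580953-39581078, plus strand) they mark GGGCGG at 125 bases, and the adjoining CCGCCC and ATTGG, the GC box and CCAAT read on the other strand, at 72 and 66 bases.
COL4A1 and COL4A2: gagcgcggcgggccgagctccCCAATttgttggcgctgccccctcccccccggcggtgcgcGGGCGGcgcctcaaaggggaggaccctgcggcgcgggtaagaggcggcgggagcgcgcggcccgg
MMP7: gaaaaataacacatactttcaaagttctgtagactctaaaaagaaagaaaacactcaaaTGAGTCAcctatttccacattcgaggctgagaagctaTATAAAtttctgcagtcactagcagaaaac
THBS1: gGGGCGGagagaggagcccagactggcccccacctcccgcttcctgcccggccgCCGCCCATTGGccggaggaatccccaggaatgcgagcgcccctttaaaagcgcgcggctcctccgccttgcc
In the same window before 35116 starts, searched on both strands, CCAAT was found in 21.1%, GGGCGG in 34.6%, TATAAA in 5.87% and the AP-1 motif TGACTCA in 2.46%. Of the 30 members with an entry, 7 held CCAAT, 15 the GC box, 6 TATAAA and 1, MMP7, the AP-1 motif. The cyclic AMP response element TGACGTCA (1.33% of starts) and the palindromic glucocorticoid response element, AGAACA and TGTTCT with 3 bases between (0.00285% of starts) were found in 0 of the 30, which says only that these letters are not in the window. A match is a description and not evidence of binding.

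The libraries carried the keratins KRT8, KRT17 and KRT18 (medians of 314, 701 and 351) and the mesenchymal filament gene VIM (median 1532). The defining epithelial genes EPCAM, KRT19, TP63, GRHL2 and ESRP1 had medians between 0 and 0.395, that of KRT5 was 0.585 and that of E-cadherin (CDH1) 3.27. No gene of the endothelial list passed 1.2 in any library and none of the leukocyte list passed 2.3. At 18 h the sum of the 10 epithelial markers was 1007 to 1642 (median 1029) with vehicle and 350 to 454 (median 449) with mometasone. There KRT8, KRT17 and KRT18 were called lower and KRT5 higher. The sum of the 10 mesenchymal markers was lower as well, at 1911 to 2075 with vehicle and 1565 to 1878 with mometasone at 18 h. Of these markers only S100A4 was called there, as lower. At 6 h the epithelial sum was 1011 to 1445 with vehicle and 1424 to 3100 with indacaterol. KRT17 was the only marker called there, at a mean of 1885 with indacaterol beside 479 with vehicle. The median log2 change of the 6 tested epithelial markers was -0.271, so these markers as a set did not rise. The part of the shifts in these sums in the matrix results was not tested, and fewer cells of a type cannot be told apart from less RNA per cell. Mitochondrial genes took 5.88 to 28.3% of the total, over 20% in 6 libraries, all of replicate 1 at 1, 2 or 6 h. Several members also followed the replicate number. BGN had medians of 16.2, 4.18, 3.15, 3.8 and 15.8 over replicates 1 to 5, MMP2 of 6.14, 1.75, 1.41, 1.68 and 5.04, and LOX of 44.6, 78.2, 128, 73.4 and 35. The vehicle group at 18 h has a replicate 5 and the mometasone group does not. Without replicate 5 the remaining numbers match, and 21 rather than 16 members were called in that comparison. At 18 h only indacaterol alone and carbachol alone held a replicate 1, and mometasone with both agonists also lacked replicate 4. The 18 h libraries with and without mometasone therefore differ in the replicates they hold.

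Without any agent, the set was led by a few abundant members. Over the 19 vehicle libraries the median deposited value was 1102 for SPARC, 594 for fibronectin (FN1), 681 for COL1A1 and 393 for TIMP2. Next came TIMP1 at 302, the lysyl oxidase family member LOXL2 at 308, the short-chain network collagen COL8A1 at 186 and PLOD2 at 183. Type I collagen is a trimer of 2 α1 chains and 1 α2 chain, but COL1A2 had a median of 1.62 against 681 for COL1A1, on the deposited scale, read as per length because the authors name it TPM. COL3A1, the partner of type I collagen in many fibrils, stood at 1.21, MMP1 at 1.37 and MMP2 at 2, while the membrane-bound MMP14 was at 47.9.

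**Figure D1:**
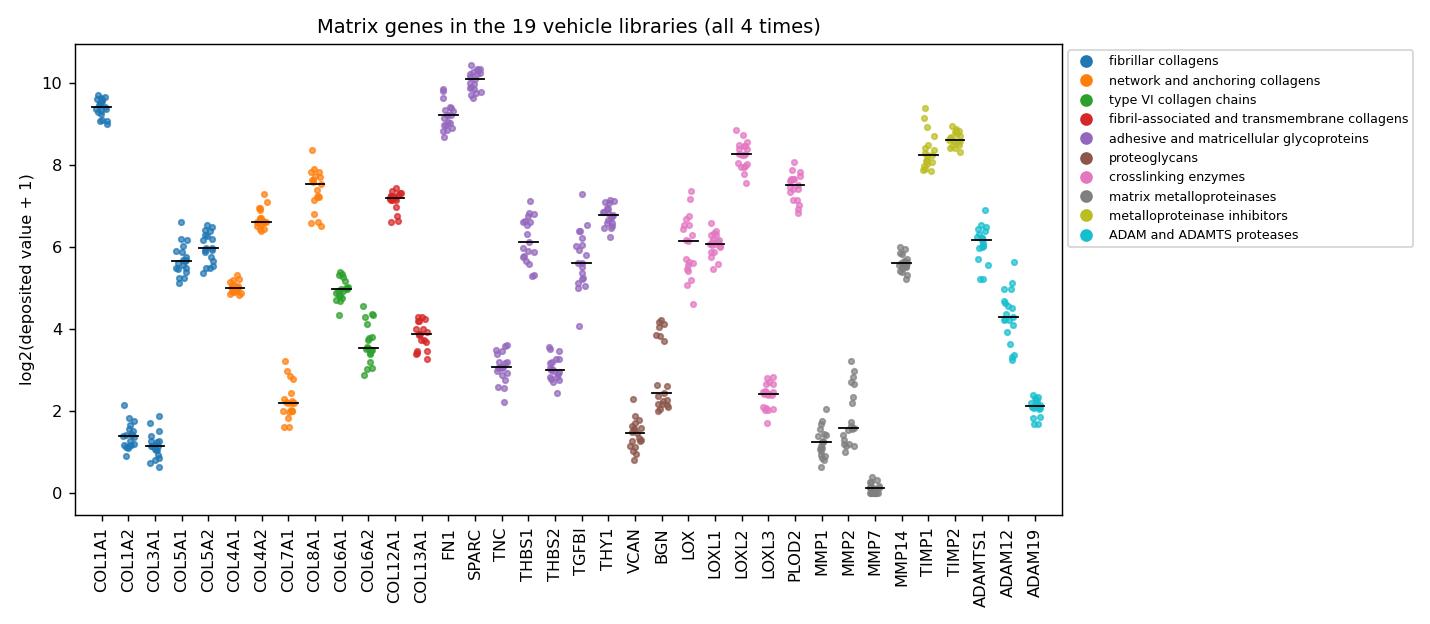
Deposited values as log2(value + 1) for the 36 tested members in each of the 19 vehicle libraries, coloured by role, with a bar at the median. SPARC, FN1 and COL1A1 lie at the top and MMP7 near 0.

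Mometasone lowered most of the set by 18 h. With vehicle as the only background, 16 of 36 members were called at an adjusted p below 0.05 (limma, Benjamini-Hochberg over all genes tested), against 9.1% of all genes: 14 fell (4.96% of all genes) and 2, COL8A1 and MMP7, rose (4.14%). Without MMP7 the count was 15 of 35. Averaged over the 4 backgrounds of vehicle, indacaterol, carbachol and both agonists, 27 members were called against 31.5% of all genes: 24 fell (13.8%) and 3 rose (17.6%), COL8A1, FN1 and MMP7. Without MMP7 it was 26 of 35. As the list was chosen with earlier results of these data known, these shares describe the set and do not test it. The median change over the 36 was -0.522 on the log2(value + 1) scale, beside 0.045 over all genes tested. That scale understates the change of members with values near 1, and all changes below are on it. Counts by role below, at 18 h over the 4 backgrounds, cover few genes each. They stand beside the same shares of all genes, 13.8% lower and 17.6% higher, and no response of a whole role is read from them. Where groups are described below as not overlapping, no share of all genes is set beside that. Nothing particular to the set is read from it.

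**Figure D2:**
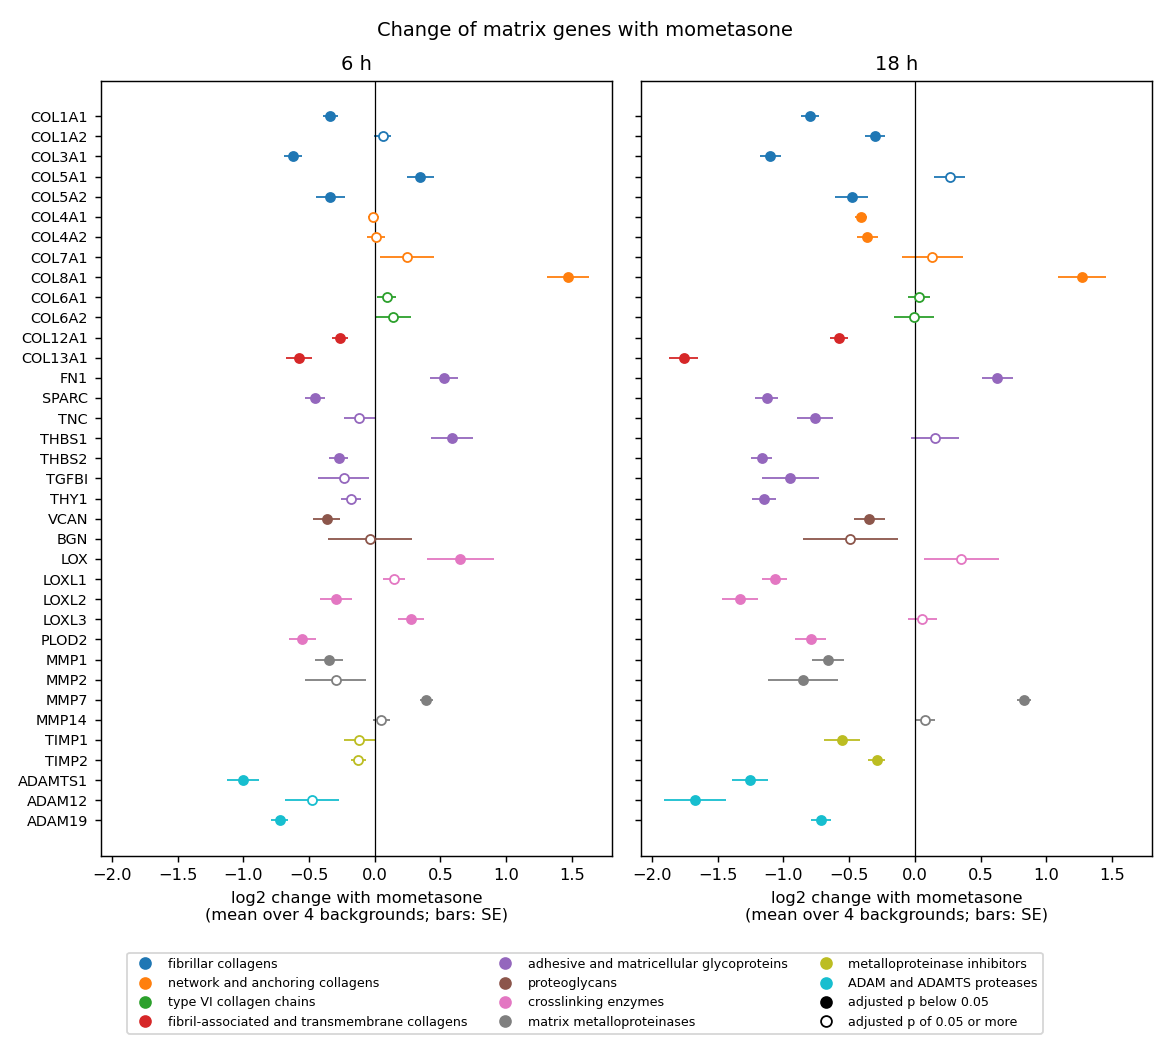
Log2 change with mometasone over the 4 backgrounds at 6 and 18 h for each tested member, ordered by role, with bars of 1 SE and filled symbols for an adjusted p below 0.05. Most members lie further below 0 at 18 h than at 6 h, and COL8A1, FN1 and MMP7 lie above 0.

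Among the fibrillar collagens, 4 of 5 fell over the 4 backgrounds at 18 h and 0 rose. COL1A1 (chr17:50183289-50201632, minus strand, GRCh38, GENCODE 29), the main chain of type I collagen, stood at 792, 784, 614 and 630.1 in the vehicle libraries and at 421, 445 and 504 with mometasone, without overlap (log2 change -0.62, SE 0.14, adjusted p = 0.000934). That call was lost without replicate 2, at an adjusted p of 0.117. Over all treatments COL1A1 ran from 272 to 504 (median 384) in the 14 libraries with mometasone and 584 to 796 (median 619.5) in the 18 without it, so every library with mometasone lay below every library without (log2 change -0.80, SE 0.07, adjusted p = 4.91e-20). COL3A1 (chr2:188974320-189012746, plus strand), at a much lower level, read 2.67, 1.21, 2.28 and 1.89 with vehicle and 0.37, 0.42 and 0.78 with mometasone (log2 change -0.97, SE 0.17, adjusted p = 2.56e-06). These groups did not overlap either, though over all treatments the ranges did, at 0.3 to 1.08 with mometasone and 0.83 to 4.99 without. COL5A2, a chain of the type V collagen that helps to set fibril diameter, was at 77.2, 91.8, 71 and 44 with vehicle and 45.8, 54.4 and 48.2 with mometasone, which overlap, and fell over the 4 backgrounds (log2 change -0.48, SE 0.13, adjusted p = 0.00146). COL1A2 fell by 0.30 (adjusted p = 0.000677). COL5A1, which codes for the other type V chain, was not called at 18 h (log2 change 0.26, SE 0.12, adjusted p = 0.0745) and had risen at 6 h, when its log2 change was 0.35 (adjusted p = 0.00472) while COL5A2 fell by 0.34 (adjusted p = 0.012). The fall of COL5A2 at 6 h had an adjusted p of 0.0566 without replicate 1, 0.0887 without replicate 2 and 0.0509 without replicate 4.

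The network collagens split. COL4A1 and COL4A2, whose shared upstream stretch is printed above, both fell at 18 h over the 4 backgrounds, COL4A1 by 0.41 (adjusted p = 1.72e-12) and COL4A2 by 0.36 (adjusted p = 0.000118). COL4A1 was at 31.1, 34.5, 28.9 and 32.5 with vehicle and 24.6, 22.4 and 25.5 with mometasone, and over all treatments its ranges were adjacent and did not overlap, from 21.6 to 27.7 (median 23.3) in the 14 libraries with mometasone and 28.3 to 35.8 (median 31.5) in the 18 without it. COL4A2 was at 103, 86.5, 96.7 and 136 with vehicle and 80.6, 62.6 and 83.7 with mometasone, and did not pass in that comparison alone (log2 change -0.47, SE 0.17, adjusted p = 0.0688). The call of COL4A1 against vehicle alone (log2 change -0.38, SE 0.10, adjusted p = 0.00626) had an adjusted p of 0.0559 without replicate 2 and 0.0646 without replicate 3. In GENCODE 29 the gene models overlap, COL4A2 beginning at 110305812 and COL4A1 ending at 110307233, and whether counting used strand is not given in the sources used here, so reads from the overlap cannot be told apart. COL7A1, the anchoring fibril collagen, was not called (log2 change 0.13, SE 0.23, adjusted p = 0.714).

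COL8A1 (chr3:99638475-99799226, plus strand), a short-chain collagen of vessel walls and other membranes, was the one collagen that rose at 18 h. At 6 h COL8A1 stood at 149, 167, 211, 193 and 111 in the vehicle libraries and at 403, 358, 617, 548 and 264 in the mometasone libraries (log2 change 1.36, SE 0.32, adjusted p = 0.000914). At 18 h it was at 209, 329, 186 and 96.6 with vehicle and 452, 612 and 458 with mometasone (log2 change 1.42, SE 0.38, adjusted p = 0.00655), and the groups did not overlap at either time. The call at 18 h had an adjusted p of 0.0651 without replicate 2 and 0.0555 without replicate 4, and of 0.051 with each time fitted alone. Over the 4 backgrounds the gene rose at 6 h (log2 change 1.47, SE 0.16, adjusted p = 2.81e-14) and at 18 h (log2 change 1.27, SE 0.18, adjusted p = 2.27e-09), and at 6 h it was the only member called higher in each of the 4 backgrounds taken alone (3.05% of all genes). Over all treatments at 18 h the ranges overlapped, from 179 to 671 (median 455) in the 14 libraries with mometasone and 82.5 to 329 (median 182) in the 18 without it. COL8A1 also followed the replicate number, with medians of 149, 208, 237, 234 and 106 over replicates 1 to 5.

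The type VI chains COL6A1 and COL6A2, which form beaded microfibrils, had changes of 0.03 and -0.01 at 18 h and passed in no comparison made here. The transmembrane collagen COL13A1 (chr10:69801867-69964275, plus strand) had the lowest log2 change of the 36, at -1.76 (SE 0.11, adjusted p = 2.18e-29). It read 15, 13.8, 17.3 and 13.6 with vehicle and 2.77, 4.07 and 3.53 with mometasone. Over all treatments it ran from 1.75 to 4.63 (median 3.15) in the 14 libraries with mometasone and 9.08 to 17.8 (median 13.1) in the 18 without it, a gap rather than an overlap. COL12A1, a collagen that decorates the surface of fibrils, was at 150.4, 153, 143 and 97.9 with vehicle and 92.6, 102 and 106 with mometasone, which overlap, and fell over the 4 backgrounds (log2 change -0.58, SE 0.07, adjusted p = 1.22e-11).

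**Figure D3:**
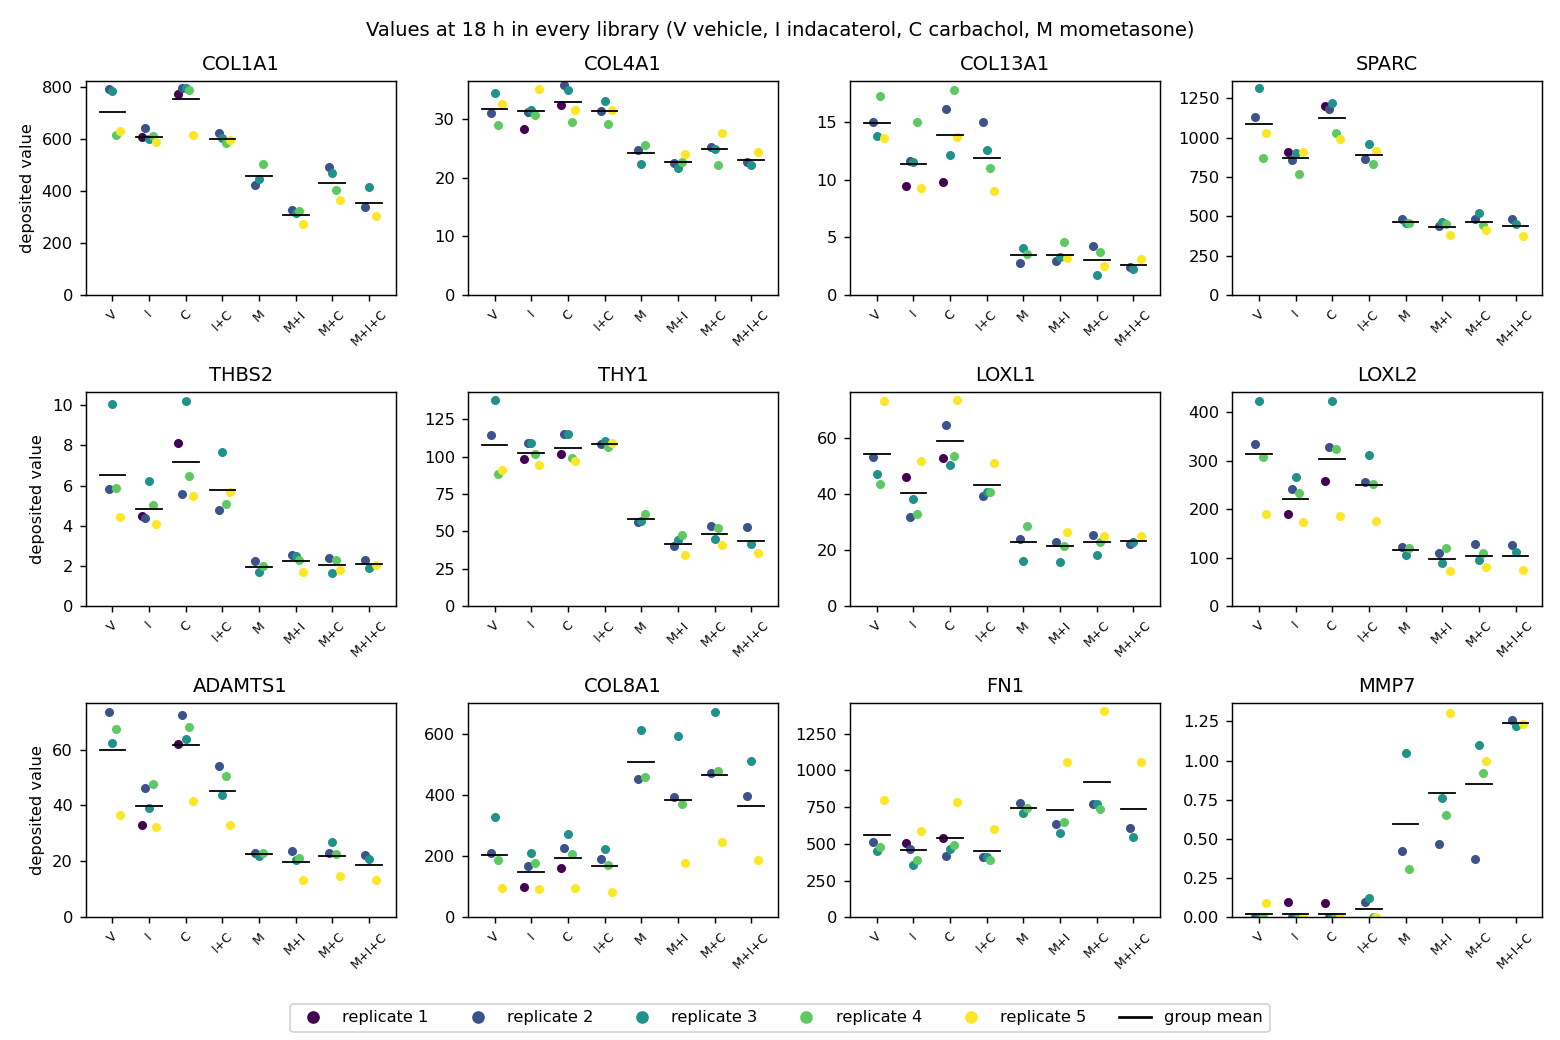
Deposited values of 12 members in every library at 18 h, over the 8 treatments, coloured by replicate number with a bar at each group mean. For COL1A1, COL4A1, COL13A1, SPARC, THBS2, THY1, LOXL1, LOXL2 and ADAMTS1 the libraries with mometasone all lie below those without it. The share of all genes separated in this way is not given. COL8A1 and FN1 overlap, and MMP7 lies above.

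The adhesive and matricellular glycoproteins gave 5 falls and 1 rise among 7 at 18 h over the 4 backgrounds. SPARC (chr5:151661096-151687165, minus strand), a collagen-binding protein and the most abundant member, stood at 1130.2, 1313, 872 and 1028 with vehicle and at 486, 457 and 455 with mometasone (log2 change -1.20, SE 0.19, adjusted p = 1.67e-07). Over all treatments it ran from 377 to 524 (median 452) in the 14 libraries with mometasone and 770.3 to 1313 (median 937) in the 18 without it, again with no overlap. Thrombospondin 2 (THBS2, chr6:169215780-169254044, minus strand), an inhibitor of angiogenesis, read 5.84, 10, 5.9 and 4.42 with vehicle and 2.23, 1.68 and 1.99 with mometasone (log2 change -1.30, SE 0.18, adjusted p = 2.08e-09). THY1 (chr11:119417378-119424985, minus strand), a GPI-anchored surface glycoprotein known as a fibroblast marker, was at 115, 138, 88.3 and 90.8 with vehicle and 56.1, 57.1 and 61.5 with mometasone. Its groups were apart (log2 change -0.86, SE 0.19, adjusted p = 0.000412), and without replicate 3 the adjusted p was 0.0691. THY1 over all treatments ran from 34.4 to 61.5 (median 46.3) in the 14 libraries with mometasone and 88.3 to 138 (median 107) in the 18 without it. Tenascin C (TNC) fell by 0.76 (adjusted p = 1.38e-06) and TGFBI, a TGF-β-induced adhesion protein, by 0.95 (adjusted p = 0.000206, and 0.0939 without replicate 3). Against vehicle alone TNC was called as well (log2 change -1.04, SE 0.29, adjusted p = 0.00747), with an adjusted p of 0.182 without replicate 2 and 0.0841 without replicate 3. Fibronectin moved the other way. FN1 was at 509, 454, 481 and 797 with vehicle and 777, 711 and 744 with mometasone, which overlap, and the gain passed over the 4 backgrounds (log2 change 0.63, SE 0.12, adjusted p = 5.8e-06) but not against vehicle alone (log2 change 0.45, SE 0.25, adjusted p = 0.331).

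Of the proteoglycans, versican (VCAN) fell over the 4 backgrounds by 0.36 at 6 h (adjusted p = 0.00246) and by 0.35 at 18 h (adjusted p = 0.0142). VCAN at 18 h read 1.06, 2.43, 1.19 and 1.82 with vehicle and 0.93, 1.86 and 1.3 with mometasone, which overlap. Both calls were at the edge: at 18 h the adjusted p was 0.0647 without replicate 3 and 0.0508 without replicate 4, and at 6 h it was 0.0555 without replicate 4. Biglycan (BGN) was not called (log2 change -0.49, SE 0.36, adjusted p = 0.329).

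Among the 5 crosslinking enzymes tested, 3 fell at 18 h over the 4 backgrounds. LOXL2, a lysyl oxidase that acts on type IV collagen, was at 335, 424, 308 and 190.1 with vehicle and 121, 105 and 119 with mometasone, with no overlap (log2 change -1.39, SE 0.29, adjusted p = 0.000159). Over all treatments LOXL2 ran from 73.1 to 129 (median 109.7) in the 14 libraries with mometasone and 173 to 424 (median 258) in the 18 without it. LOXL1 (chr15:73925989-73952137, plus strand), the family member tied to elastic fibres, was at 53.2, 47, 43.4 and 73 with vehicle and 23.8, 16.2 and 28.6 with mometasone (log2 change -1.22, SE 0.20, adjusted p = 1.36e-06), and over all treatments from 15.8 to 28.6 (median 22.8) in the 14 libraries with mometasone and 31.8 to 73.3 (median 48.6) in the 18 without it. PLOD2, the hydroxylase that prepares collagen ends for crosslinks, read 177, 268, 204 and 113 with vehicle and 106, 134 and 102 with mometasone, which overlap, and fell over the 4 backgrounds (log2 change -0.79, SE 0.12, adjusted p = 1.69e-08). LOX itself and LOXL3 were not called at 18 h, with changes of 0.35 and 0.06. At 6 h both had risen, LOX by 0.65 (adjusted p = 0.035) and LOXL3 by 0.28 (adjusted p = 0.0169), while LOXL2 had fallen by 0.29 (adjusted p = 0.0476). Each of these 6 h calls was lost when certain single replicates were left out. The adjusted p was 0.0617 without replicate 1, 0.0918 without replicate 2, 0.0544 without replicate 3 and 0.115 without replicate 4 for LOX, and 0.057 with no filter on low values. It was 0.0949 without replicate 1 and 0.147 without replicate 2 for LOXL3. For LOXL2 it was 0.103 without replicate 1, 0.158 without replicate 2, 0.0769 without replicate 3 and 0.093 without replicate 4, 0.0753 with no filter and 0.0709 without the libraries of high mitochondrial share.

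The proteases and their inhibitors were mostly lower as well. MMP1, the interstitial collagenase, read 2.22, 0.76, 1.96 and 1.42 with vehicle at 18 h and 0, 0.1 and 0.09 with mometasone (log2 change -1.25, SE 0.26, adjusted p = 0.000144). The gelatinase MMP2 was at 1.92, 1, 1.46 and 4.09 with vehicle and 1.06, 0.8 and 0.53 with mometasone, which overlap, and fell over the 4 backgrounds (log2 change -0.85, SE 0.26, adjusted p = 0.00753). MMP14, which activates MMP2 at the cell surface, was not called (log2 change 0.08, SE 0.07, adjusted p = 0.442). Matrilysin (MMP7, chr11:102520508-102530753, minus strand), an epithelial protease, was listed at 0, 0, 0 and 0.09 with vehicle and 0.42, 1.05 and 0.31 with mometasone, and over all treatments from 0.31 to 1.3 (median 0.96) in the 14 libraries with mometasone and 0 to 0.12 (median 0) in the 18 without it. MMP7 was higher in every mometasone library at 18 h, but its filter selected for that, its highest value was 1.3, and against vehicle alone its adjusted p of 1.32e-05 became 0.0671 without replicate 3. TIMP1 was at 316, 250.1, 305 and 569 with vehicle and 212, 145 and 193 with mometasone (log2 change -0.92, SE 0.29, adjusted p = 0.0245). That call had an adjusted p of 0.115 without replicate 2, 0.0671 without replicate 3 and 0.105 without replicate 4. With each time fitted alone it was 0.0595, and over the 4 backgrounds TIMP1 fell by 0.56 (adjusted p = 0.000484). TIMP2 fell by 0.29 (adjusted p = 0.000197), from 495, 378, 416 and 353 with vehicle beside 392, 331 and 393 with mometasone, which overlap.

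All 3 tested members of the ADAM and ADAMTS families fell at 18 h over the 4 backgrounds. ADAMTS1 (chr21:26835747-26845409, minus strand), which cleaves versican and aggrecan, was at 73.5, 62.2, 67.5 and 36.8 with vehicle and 22.8, 21.8 and 22.8 with mometasone (log2 change -1.33, SE 0.30, adjusted p = 0.000509). ADAM12 was at 22.1, 48.8, 24.9 and 8.45 with vehicle and 6.48, 11.4 and 6.52 with mometasone. Its fall was called over the 4 backgrounds (log2 change -1.67, SE 0.23, adjusted p = 1.39e-09) and not against vehicle alone (log2 change -1.38, SE 0.50, adjusted p = 0.0663), and its medians by replicate number ran from 10.1 to 31.4. ADAM19 was low, at 3.19, 3.47, 3.26 and 2.21 with vehicle and 1.41, 1.41 and 1.64 with mometasone (log2 change -0.69, SE 0.16, adjusted p = 0.000896, and 0.053 without replicate 2).

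The falls with mometasone were then read in each background alone. At 18 h 11 members were called lower in each of the 4 backgrounds taken alone, against 3.06% of all genes: COL1A1, COL3A1, COL4A1, COL13A1, SPARC, THBS2, THY1, LOXL1, LOXL2, ADAMTS1 and ADAM19. MMP7 was called higher in each (2.23% of all genes), but the filter fixed that direction for it and nothing is read from the call. The sign was the same in all 4 for 25 members lower and 6 higher. This was counted for the members only, without a share of all genes, so nothing particular to the set is read from it. At 6 h ADAM19, ADAMTS1 and COL3A1 were the members called lower in each (2.41%).

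The timing differed between members. At 1 h mometasone against vehicle called 0 members with limma (0.472% of all genes). There 1 of 36 members had an unadjusted p below 0.05, beside 537 of all 14827 genes tested. With the replicate number as a block 2 members were called at 1 h, when 1.14% of all genes were called. At 2 h mometasone against vehicle called 1 (1.99%), ADAMTS1, and 3 with the block (5.02%). At 6 h it called 8 (9.61%), of which 7 fell (4.24%). The 6 h count was 4 without replicate 2 and 5 without replicate 5, and the 18 h count was 10 without replicate 2. Over the 4 backgrounds mometasone called 1 member at 1 h (2.64%), 2 at 2 h (8.58%) and 20 at 6 h (33%, 19 of 35 without MMP7), and with the block 2 at 1 h (5.54%) and 10 at 2 h (21.5%). At 6 h 13 fell (14.6%) and 7 rose (18.4%; 6 without MMP7), so the mix was more even than at 18 h, and the median change was -0.12 over the members and 0.019 over all genes.

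ADAMTS1 was the early fall and thrombospondin 1 (THBS1) the early rise. At 2 h ADAMTS1 stood at 71.6, 91.7, 64.6, 119.8 and 51.2 in the vehicle libraries and at 30.3, 36.7, 27, 42.7 and 29.3 in the mometasone libraries, without overlap (log2 change -1.20, SE 0.25, adjusted p = 0.000351). At 6 h ADAMTS1 stood at 63.1, 75.3, 74.5, 83 and 46.2 in the vehicle libraries and at 23.6, 26.7, 31.3, 32.7 and 22.1 in the mometasone libraries (log2 change -1.29, SE 0.25, adjusted p = 2.86e-05). THBS1 (chr15:39581079-39599466, plus strand), whose upstream stretch is printed above, activates latent TGF-β. At 1 h THBS1 stood at 107, 47.4, 112, 59.3 and 38.4 in the vehicle libraries and at 148, 98.9, 186 and 144 in the mometasone libraries, which did not pass alone (log2 change 1.07, SE 0.34, adjusted p = 0.243). Over the 4 backgrounds THBS1 rose by 0.82 at 1 h (adjusted p = 0.000141), 0.96 at 2 h (adjusted p = 5.91e-07) and 0.59 at 6 h (adjusted p = 0.00163). At 18 h its change was 0.15 (adjusted p = 0.568), which did not pass. ADAM19 had a log2 change of -0.72 over the 4 backgrounds at 6 h and of -0.72 at 18 h. Its values at 6 h were 3.36, 3.77, 3.82, 3.37 and 2.63 with vehicle and 1.45, 1.6, 1.95, 1.87 and 1.1 with mometasone, without overlap. Other 6 h calls against vehicle alone were less firm. COL3A1 read 1.64, 1.42, 1.09, 1.21 and 1.44 with vehicle and 0.77, 0.56, 0.55, 0.84 and 0.95 with mometasone at 6 h, and its adjusted p of 0.0207 became 0.0923 without replicate 1, 0.195 without replicate 2 and 0.054 without replicate 5. SPARC, at an adjusted p of 0.022, had 0.247 without replicate 2 and 0.0866 without replicate 5. THBS2, at an adjusted p of 0.0484, lost its call whichever replicate was left out, with 0.144 without replicate 1, 0.218 without replicate 2, 0.0983 without replicate 3, 0.0572 without replicate 4 and 0.0937 without replicate 5, and also with no filter on low values (0.07) or each time fitted alone (0.0579). MMP1 fell by 0.76 (adjusted p = 0.00962, but 0.151 without replicate 2 and 0.0502 without replicate 5). Its 6 h call over the 4 backgrounds had an adjusted p of 0.0954 without replicate 2.

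**Figure D4:**
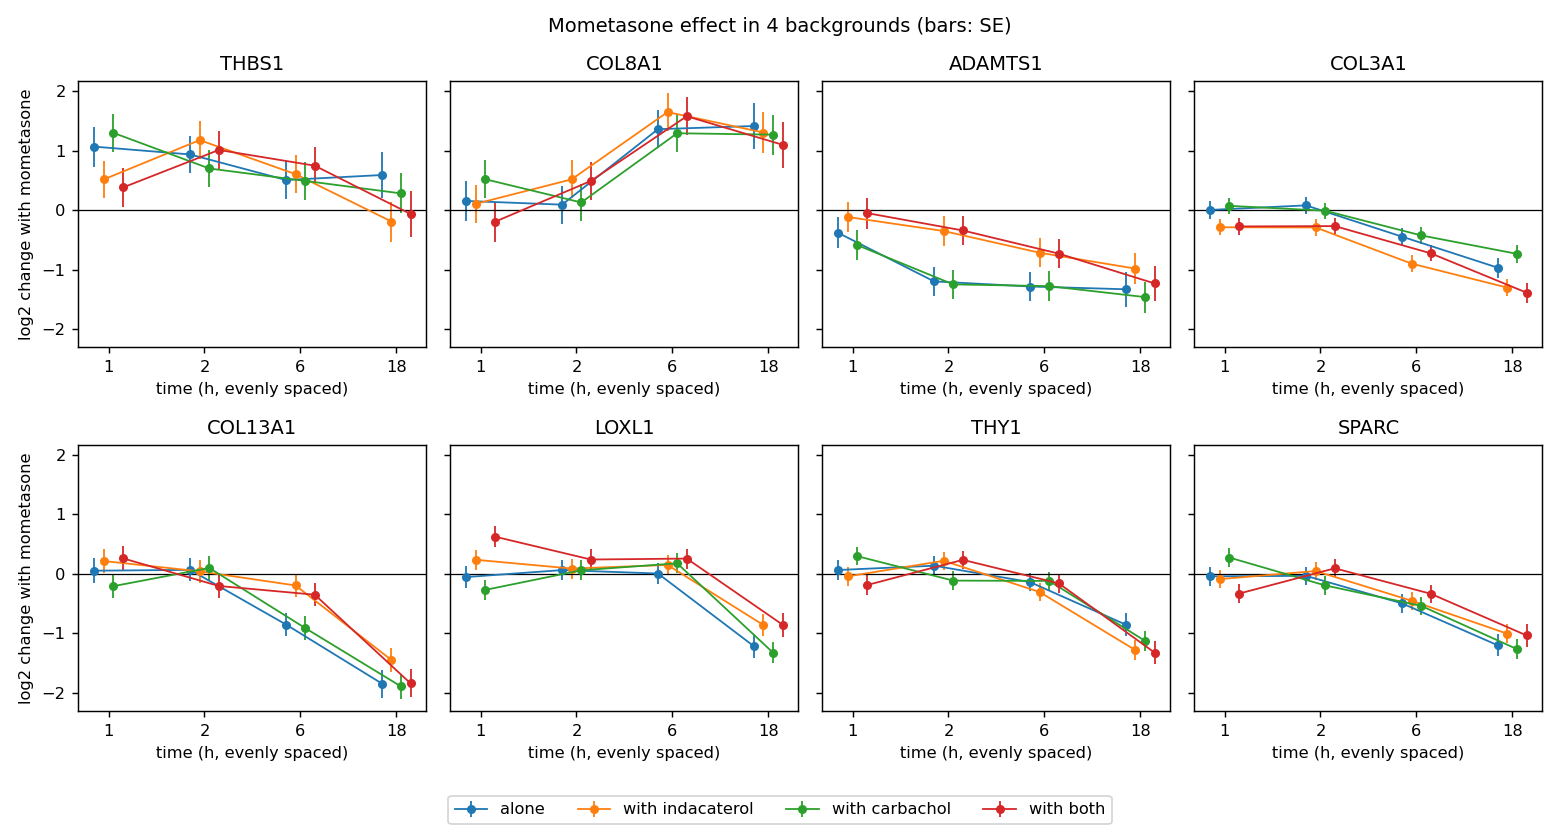
Log2 change with mometasone at 1, 2, 6 and 18 h in each of the 4 backgrounds for 8 members, with bars of 1 SE. THBS1 lies above 0 at 1, 2 and 6 h, ADAMTS1 lies below 0 at every time, and LOXL1, THY1 and SPARC are lowest at 18 h.

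The change at 18 h was compared with that at 6 h within the same model, a comparison added after the values were seen. For 15 members the effects differed, against 8.51% of all genes, and in 14 of them the later effect was lower (5.21% of all genes, and 14 of 35 members without MMP7). LOXL1 moved from 0.15 to -1.07, ADAM12 from -0.48 to -1.67 and COL13A1 from -0.58 to -1.76. LOXL2 went from -0.29 to -1.33 and THY1 from -0.18 to -1.15. The number was 10 without replicate 2, 11 without replicate 3 and 26 with the replicate block, which called 22% of all genes.

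At 6 and 18 h indacaterol changed fewer members than mometasone did. Over the 4 backgrounds at 6 h more of them rose than fell, but this balance did not hold without replicate 2 or without replicate 4. Against vehicle 1 member was called at each time, compared with 1.4, 3.91, 1.74 and 0.202% of all genes at 1, 2, 6 and 18 h. It was COL3A1 at 1, 2 and 6 h and MMP1 at 18 h. With the replicate block the counts were 6 at 2 h (10.2% of all genes) and 5 at 18 h (1.54%). Over the 4 backgrounds of vehicle, mometasone, carbachol and both, 2, 3, 10 and 3 members were called, against 4.51, 13.5, 13.1 and 1.6%. The block gave 10 members at 2 h (27.1%), 16 at 6 h (29.7%) and 12 at 18 h (8.91%). Over the 4 backgrounds, in the fit that has no block, the members' share at 1 and 2 h was near or below that of all genes, and at 6 and 18 h it was above. Against vehicle the share was 2.78% at each time, from 1 member, and no pattern over time is read from it.

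COL3A1 was the member called most often with indacaterol. At 6 h its values were 1.64, 1.42, 1.09, 1.21 and 1.44 with vehicle and 3.13, 2.84, 3.17, 3.22 and 2.93 with indacaterol, without overlap (log2 change 0.79, SE 0.14, adjusted p = 2.13e-05). At 1 h they were 1.28, 0.68, 1.39, 0.57 and 1.08 with vehicle and 1.82, 1.84, 1.92, 2.07 and 1.79 with indacaterol (log2 change 0.55, SE 0.14, adjusted p = 0.0101), a call whose adjusted p was 0.294 without replicate 2, 0.205 without replicate 4 and 0.0569 without replicate 5. Over the 4 backgrounds COL3A1 rose by 0.34, 0.47, 0.55 and 0.50 at 1, 2, 6 and 18 h (adjusted p = 0.000223, 1.66e-08, 7.8e-11 and 1.89e-06, the first of them 0.0762 without replicate 4). Mometasone had the opposite sign on this gene at 6 h. The libraries with both agents at 6 h read 0.93, 1.07, 1.1, 1.32 and 1.49, all below the indacaterol libraries and all but the lowest above the mometasone libraries.

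**Figure D5:**
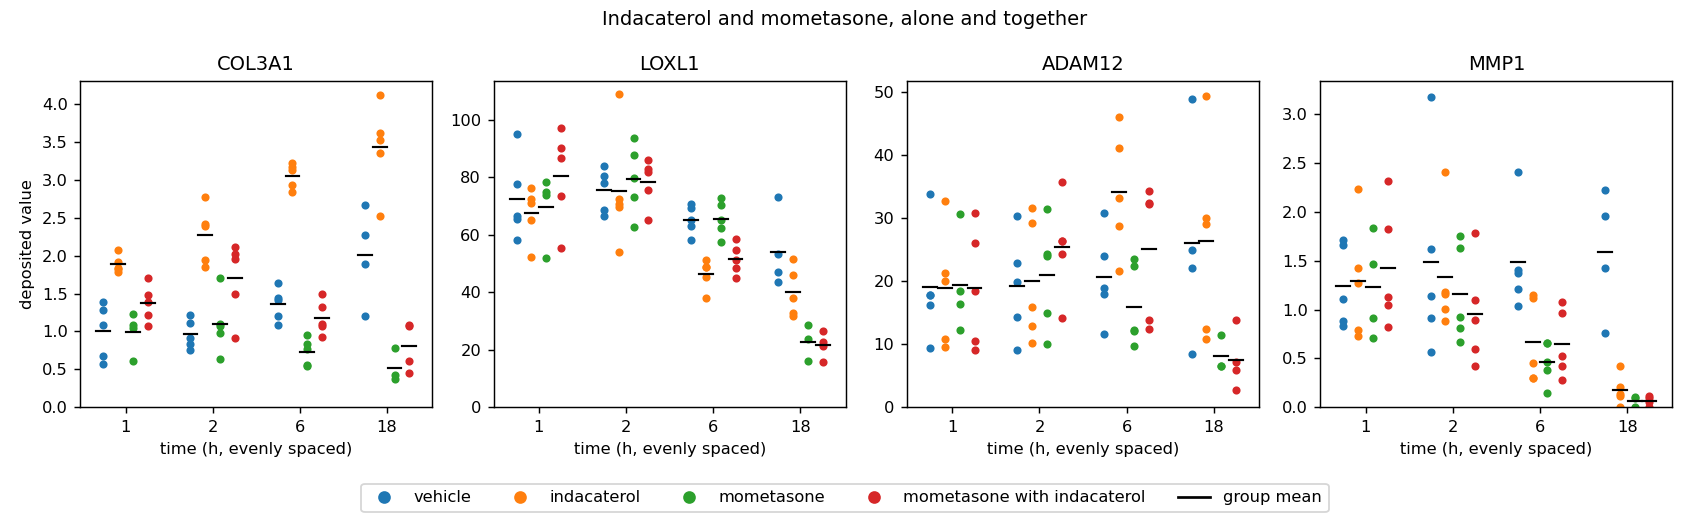
Deposited values of COL3A1, LOXL1, ADAM12 and MMP1 in each library with vehicle, indacaterol, mometasone or both, at 1, 2, 6 and 18 h, with a bar at the group mean. At 6 h the COL3A1 libraries with indacaterol lie above all others, and at 18 h MMP1 is near 0 with either agent.

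ADAMTS1 rose with indacaterol over the 4 backgrounds by 0.72 at 1 h (adjusted p = 6.46e-06) and 0.46 at 2 h (adjusted p = 0.0031, but 0.0521 without replicate 2 and 0.0843 without replicate 3). At 1 h ADAMTS1 was at 79.4, 64.5, 89, 86.2 and 36.4 with vehicle and 83, 126, 111, 142 and 62.7 with indacaterol. The sign of its change with mometasone was negative at these times. THBS2 rose at 2 h by 0.29 (adjusted p = 0.00178) and at 6 h by 0.28 (adjusted p = 0.0027, and 0.132 without replicate 2). At 6 h 7 members rose (6.85% of all genes) and 3 fell (6.27%) over the 4 backgrounds. ADAM12 rose by 0.71 (adjusted p = 0.0096, and 0.16 without replicate 2 and 0.0601 without replicate 4), VCAN by 0.43 (adjusted p = 0.000794) and PLOD2 by 0.38 (adjusted p = 0.00561, and 0.1 without replicate 2 and 0.0713 without replicate 4). MMP14 rose by 0.22 (adjusted p = 0.0117, and 0.0782 without replicate 2 and 0.114 without replicate 4) and COL12A1 by 0.20 (adjusted p = 0.0219, and 0.18 without replicate 2, 0.112 without replicate 3 and 0.123 without replicate 4). The falls were THBS1 by 0.62 (adjusted p = 0.00223), LOXL1 by 0.51 (adjusted p = 8.49e-07) and COL1A1 by 0.24 (adjusted p = 0.00152). The count at 6 h was 5 without replicate 2 and 6 without replicate 4. The members still called without replicate 2 were COL3A1 and VCAN, which rose, and THBS1, LOXL1 and COL1A1, which fell.

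At 18 h COL1A1 fell with indacaterol by 0.35 over the 4 backgrounds (adjusted p = 0.000275). MMP1 at 18 h read 2.22, 0.76, 1.96 and 1.42 with vehicle and 0.21, 0.11, 0, 0.42 and 0.14 with indacaterol, without overlap (log2 change -1.11, SE 0.23, adjusted p = 0.00387). Against vehicle its adjusted p was 0.347 without replicate 2 and 0.0806 without replicate 5, and over the 4 backgrounds, where it fell by 0.52 (adjusted p = 0.00549), it was 0.202 without replicate 2.

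The inhaled combination of mometasone with indacaterol against vehicle called 0, 4, 8 and 16 members at 1, 2, 6 and 18 h with limma. Of all genes 2.44, 7.65, 17.7 and 13% were called. At 1 h 1 of 36 members had an unadjusted p below 0.05, beside 906 of all 14827 genes tested. The replicate block gave 26 at 18 h (30.2% of all genes). At 2 h all 4 rose (5.4% of all genes): COL3A1, COL4A1, THBS1 and THBS2, though this count was 2 without replicate 1, 2, 3 or 4 and 1 without replicate 5. Without MMP7 the counts were 7 of 35 at 6 h and 15 of 35 at 18 h. At 6 h the count was 5 without replicate 3, and 5 without the 6 libraries of high mitochondrial share. At 18 h 15 of the 16 fell (6.89%), and the other was MMP7. COL1A1 was at 326, 315, 321 and 272 in these libraries (log2 change -1.18, SE 0.13, adjusted p = 8.39e-13), beside -0.62 for mometasone alone and -0.20 for indacaterol alone, comparisons that share their vehicle libraries. PLOD2 and ADAM12 fell in it too, ADAM12 by 1.62 (adjusted p = 0.00751, and 0.104 without replicate 2 and 0.0717 without replicate 4, or 0.063 with each time fitted alone).

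Whether the effects of mometasone and indacaterol departed from their sum was tested as an interaction, and 0 members were called at any time (0.0742, 0.405, 0.216 and 0.0674% of all genes). At an unadjusted p below 0.05 limma gave 0, 1, 4 and 1 of 36 members. Among all 14827 genes tested it gave 348, 532, 436 and 375. With the replicate block it called 1 member at 2 h (1.98% of all genes) and 1 at 18 h (0.229%). With array weights it called 1 at 18 h (0.209%). The 6 unadjusted ones had interaction terms of 0.85 for ADAMTS1 at 2 h, of -0.45 for COL3A1, 0.66 for COL13A1, 0.76 for MMP1 and 0.34 for MMP7 at 6 h, and of 1.11 for MMP1 at 18 h. MMP1 at 18 h was at or near 0 with either agent.

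Carbachol left no called change in the set. Against vehicle limma called 0 members at 1, 2, 6 and 18 h, against 0.0809, 0.027, 0 and 0.00674% of all genes. An unadjusted p below 0.05 was found for 0 of 36 members, beside 302, 260, 124 and 171 of all 14827 genes tested. Over the 4 backgrounds limma called 0 (0.189, 0.121, 0 and 0%). There 1, 0, 2 and 2 members had an unadjusted p below 0.05, beside 509, 397, 275 and 150 of the 14827 genes. With the replicate block 2 members were called at 1 h (1.02% of all genes). Of those at an unadjusted p below 0.05, COL1A2 at 6 h had the lowest adjusted p, 0.731, for a change of 0.24 (SE 0.07). The interaction of indacaterol and carbachol, the crosstalk named in the study's title, called 0 members (0, 0.00674, 0 and 0% of all genes). It gave 1 member at an unadjusted p below 0.05, VCAN at 1 h, with a term of 0.61. Among the 14827 genes it gave 1520, 170, 115 and 172 at 1, 2, 6 and 18 h. The replicate block and array weights each called 3 at 1 h, when they called 13.5 and 8.17% of all genes. The replicate numbers did not pair the libraries for this interaction at 1 h. For COL1A1 at 18 h the carbachol libraries read 773, 796, 795, 786 and 616 beside 792, 784, 614 and 630.1 with vehicle.

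Time in culture without an agent also left 0 calls between the vehicle libraries at 18 h and 1 h (0.121% of all genes). An unadjusted p below 0.05 was found for 3 of 36 members, beside 1077 of all 14827 genes tested. COL3A1 came nearest, at 1.28, 0.68, 1.39, 0.57 and 1.08 at 1 h and 2.67, 1.21, 2.28 and 1.89 at 18 h (log2 change 0.59, SE 0.15, adjusted p = 0.0584). LOXL1 had a change of -0.42 (adjusted p = 0.558) and COL1A2 of 0.28 (adjusted p = 0.682). Leaving out replicate 1 or replicate 3 gave 1.

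Genes that modify collagen and genes of the TGF-β pathway, which drives many matrix genes in other settings, were counted from lists. At 18 h over the 4 backgrounds, where 17.6% of all genes rose and 13.8% fell, mometasone raised 4 and lowered 6 of the 20 tested collagen-processing genes (median -0.046, beside 0.045 over all genes). TGM2, the transglutaminase that crosslinks fibronectin among others, rose from a mean of 2.15 to 8.26 (log2 change 1.54, adjusted p = 6.18e-26). BMP1, the protease that trims procollagen, rose from 43.3 to 106 (log2 change 1.27, adjusted p = 1.96e-29). P3H2, next by size of change, fell from 6.72 to 3.45 (log2 change -0.81, adjusted p = 1.48e-13). Of 23 tested TGF-β pathway genes 6 rose and 4 fell (median 0.084). The receptors TGFBR3 and TGFBR2 rose at 18 h by 1.56 (adjusted p = 1.87e-16) and 1.48 (adjusted p = 1.24e-13). Of the epithelial markers 1 of 6 tested rose and 4 fell at 18 h, KRT17 by 2.02 (adjusted p = 7.79e-27), and of the mesenchymal markers 3 of 9 rose and 2 fell.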

How the data were processed

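The authors deposited 1 table of values per gene and library, which they name TPM. The 150 columns used summed to between 847289 and 1498421 (median 961146) and not to a constant, so the deposited values were treated as a signal of unknown depth, and no counting interval was given. Per the submitters' processing notes, bcl2fastq 2.17.1.14, STAR 2.4.2a and GRCh38 were used. Quantifier, annotation and use of strand: not given in the sources used here. A design text mentions 2 sequencing kits and the labels do not assign libraries to them, so a kit effect could not be fitted. Groups came from the sample labels. 10 columns of samples were not used: 4 marked by the authors as excluded and 6 headed 8 h, a time the labels do not give.

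From these values log2(value + 1) was fitted with limma 3.58.1 in R 4.3.3, with 1 coefficient for each of the 32 groups, a trended prior and 118 residual degrees of freedom. The tests ran on genes reaching 1 in 5 or more libraries, and p-values were adjusted by Benjamini-Hochberg over all 14827 of them in each comparison and time. The procedure was tested on simulated data with independent noise in every library, so that test does not cover libraries that deviate together by replicate number. "Over 4 backgrounds" is the mean of the 4 effects of an agent, which share no library. Alternatives changed the pseudocount, filter, scaling, pooling of times, trend, weights and replicates, and left out the 6 libraries with over 20% mitochondrial values. Deviations of same-numbered libraries were correlated within each comparison, and the numbers were taken to pair libraries where every correlation passed 0.1. For mometasone over 4 backgrounds the lowest were 0.424, 0.552, 0.407 and 0.47 at 1, 2, 6 and 18 h, so a block was fitted as an alternative. For mometasone against vehicle this failed at 6 and 18 h (lowest 0.019 and -0.015).

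The members and lists were chosen with earlier results of these data known. Values in every library were given for up to 3 members per role with the largest called log2 change and for exceptions to their role. Other genes of the collagen-processing, TGF-β and marker lists were named up to 3 per list by the same measure. The values of 1 listed gene are not reported here. Coordinates are from GENCODE 29 and upstream sequences from RefSeq's GRCh38.p14 table, read with Python 3.11.15.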

Additional observations from a re-analysis of the deposited data

Results flagged for a closer look

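In 45 sets of 1 gene in 1 group of 4 or 5 libraries checked for an outlying library, 2 held one, where chance gives about 1 in 20. MMP1 in vehicle at 6 h read 2.41 in replicate 2 and 1.04 to 1.4 in the others, and the call of MMP1 at 6 h was lost without that replicate. MMP7 in vehicle at 18 h read 0.09 in replicate 5 and was listed at 0 in the others.

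The effect of mometasone over the 4 backgrounds differed between 18 h and 6 h for 15 members (limma, adjusted p below 0.05 on the difference itself). Among the collagens the difference in log2 change, 18 h minus 6 h, was -1.18 for COL13A1, -0.48 for COL3A1, -0.46 for COL1A1, -0.4 for COL4A1, -0.37 for COL4A2, -0.36 for COL1A2 and -0.31 for COL12A1. Among the glycoproteins it was -0.97 for THY1, -0.89 for THBS2, -0.67 for SPARC and -0.64 for TNC. LOXL1 differed by -1.21 and LOXL2 by -1.04 among the crosslinkers, and ADAM12 by -1.2 among the proteases. MMP7 was the member whose effect was higher at 18 h, by 0.44, and its filter rested on 18 h libraries. The 18 h groups hold fewer libraries and other replicates than the 6 h groups, and the part of that in the difference was not tested.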

How the results depend on the processing

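Of 125 called results for single members, each recomputed under 13 alternatives, 1525 of 1625 values kept their direction and call, 100 kept their direction and lost the call, and 0 reversed. They include MMP7, whose direction its filter fixed. All were taken because they were called, and the alternatives reuse most of the same libraries, so a reversal was unlikely from the start. The number of members called at 1 or more times was 31 for mometasone over 4 backgrounds and 29 to 34 under the alternatives. Such counts, here and below, have no share of all genes beside them. They are read only as shifts between settings. The pairing by replicate number was the alternative with the most calls. With the replicate block the number went from 16 to 29 for mometasone against vehicle, 2 to 15 for indacaterol against vehicle, 18 to 32 for the combination, 12 to 23 for indacaterol over 4 backgrounds and 0 to 2 for carbachol over 4 backgrounds. The block also gave 3 for the mometasone by indacaterol interaction, 3 for indacaterol by carbachol and 3 for vehicle at 18 h against 1 h, where the main counts were 0. At 6 h in the first of these interactions, with 2 members under the block, and for vehicle over time, the numbers did not pair the libraries. Nor did they at 1 h in the second interaction. The same held for mometasone against vehicle at 6 and 18 h, indacaterol against vehicle at 1 and 6 h and the combination at 1, 2 and 6 h. The block counts above were not limited to times that paired. The block and the weights also called more of all genes, for vehicle over time 6.15 and 9.92% beside 0.121%. Array weights gave 24 for mometasone against vehicle, 7 and 19 for indacaterol against vehicle and over 4 backgrounds, 1 and 3 for those interactions, 1 for carbachol over 4 backgrounds and 3 for vehicle over time. No filter on low values and no trend each gave 1 for vehicle over time. Leaving out single replicates gave 12 to 21 for mometasone against vehicle, 1 to 2 for indacaterol against vehicle, 16 to 18 for the combination, 7 to 12 for indacaterol over 4 backgrounds and 0 to 1 for vehicle over time. The cause of these shifts was not tested, beyond the smaller number of libraries. Carbachol against vehicle stayed at 0 calls with limma under every alternative. The unknown depth limits members near 1, such as MMP1, MMP7, VCAN and COL3A1.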
